A study of Homo sapiens with 8 samples.

Results

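The CYP4 fatty acid hydroxylases described here are 10 genes, CYP4B1, CYP4F2, CYP4F3, CYP4F8, CYP4F11, CYP4F12, CYP4F22, CYP4V2, CYP4X1 and CYP4Z1, among 19775 genes read on 8 expression arrays. They were taken by name as members of the CYP4 family of cytochromes P450, each through array probe sets annotated to that gene alone, 14 probe sets in all. Where a gene had several probe sets, the one read was chosen by its mean signal over the 8 arrays, the highest being taken, and the others are given beside it. The family itself was put forward with the response of CYP4F8 known, so the changes of CYP4F8 are given as a description and the p-values beside them support nothing further. The arrays come from MDA-MB-453, an established human breast cancer cell line known to lack estrogen receptor. Every group had been held for 3 days in medium without phenol red whose 5% serum had been treated with charcoal to remove steroids. Vehicle was compared with dihydrotestosterone (DHT), a potent natural androgen, at 10 nM for 4, 16 or 48 h, with n = 2 biological replicates in each of the 4 groups. How long vehicle was applied is not labelled, so DHT and time in culture cannot be told apart, and all 3 comparisons with vehicle share the same control arrays. The labels do not say that replicates came from separate cultures, so p-values measure the spread between these arrays. In bulk RNA, fewer cells with a transcript and less of it per cell cannot be told apart.

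CYP4 enzymes sit in the endoplasmic reticulum and put a hydroxyl group at or near the far end of a fatty acid chain, using electrons passed on by cytochrome P450 reductase and cytochrome b5. The products of such omega-hydroxylation include inactivated leukotrienes and prostaglandins, dicarboxylic acids for peroxisomal oxidation, and the long hydroxy fatty acids of the skin barrier. CYP4F8 is known as a prostaglandin hydroxylase of seminal vesicles and other epithelia, and CYP4Z1 as a family member largely restricted to mammary tissue and often abundant in breast cancer. The 6 CYP4F members lie in a cluster on chromosome 19, CYP4B1, CYP4X1 and CYP4Z1 lie on chromosome 1 and CYP4V2 on chromosome 4.

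The DNA before the start of CYP4F8 is printed with that of CYP4F11 and CYP4F2. These paralogs had the most similar upstream sequence among the members with a window, yet different array results. The sequences are from RefSeq (GRCh38.p14), which gave windows for 9 of the 10 genes. CYP4F12 had no window and was not compared. Each line holds the 250 bases before an annotated start, read 5′ to 3′ on the strand of the gene, at chr19:15614968-15615217 (plus strand) for CYP4F8, chr19:15934868-15935117 (minus strand) for CYP4F11 and chr19:15898075-15898324 (minus strand) for CYP4F2. Capitals mark the CCAAT box, which reads ATTGG here since each match is on the opposite strand.
CYP4F8: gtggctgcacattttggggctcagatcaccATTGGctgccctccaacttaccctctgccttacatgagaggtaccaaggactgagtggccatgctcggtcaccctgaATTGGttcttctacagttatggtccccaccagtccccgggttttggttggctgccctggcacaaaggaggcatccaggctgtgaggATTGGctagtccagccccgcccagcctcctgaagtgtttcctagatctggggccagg
CYP4F11: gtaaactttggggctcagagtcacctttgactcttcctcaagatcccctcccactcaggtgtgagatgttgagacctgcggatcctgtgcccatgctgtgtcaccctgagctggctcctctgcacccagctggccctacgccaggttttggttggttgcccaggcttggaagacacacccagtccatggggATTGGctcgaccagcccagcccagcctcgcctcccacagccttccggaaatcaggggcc
CYP4F2: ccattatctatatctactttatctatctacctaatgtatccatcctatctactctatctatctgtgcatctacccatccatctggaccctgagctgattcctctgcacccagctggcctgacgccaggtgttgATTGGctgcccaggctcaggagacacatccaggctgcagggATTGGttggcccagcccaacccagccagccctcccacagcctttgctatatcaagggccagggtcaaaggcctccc

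In a global alignment CYP4F8 shared 178 of its 250 bases with CYP4F11 (71.2%) and 162 with CYP4F2 (64.8%). The other 8 windows of members, a second CYP4F11 start among them, shared 52.8% to 59.6%. Counted back from -1 at the base before the start, the nearest CCAAT box began at -57 in CYP4F8, -59 in CYP4F11 and -76 in CYP4F2. CYP4F8 held further matches at -143 and -220 and CYP4F2 at -117. On either strand, this motif occurred in 32.0% of 35116 windows of the same length. The palindromic androgen response element, AGAACA and TGTTCT with 3 bases of any kind between them, was in none of the 11 windows of members and in 1 of the 35116. Its half-site AGAACA was in 12.4% of all windows and in 5 of the 11 windows of members. These were the windows of CYP4F3, CYP4F22, CYP4V2 and CYP4Z1 and 1 of those of CYP4X1. In these letters the half-site was not in the windows of CYP4F8, CYP4F11 and CYP4F2. These matches describe letters in a short window and do not show binding.

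The log2 signals were RMA values (robust multi-array average, a background-corrected and normalised probe set summary) as deposited. Levels of different probe sets are not comparable, so each gene is compared with itself. Median signals per array ranged from 7.59 to 7.63, and replicates correlated across genes at r = 0.995 to 0.997. DHT 16 h replicate 2 lay away from the other arrays on principal component 2 and in the difference between 3′ and 5′ control probe sets of ACTB, 1.52 log2 units against 0.203 to 0.945 on the other arrays. FKBP5, a classical androgen target, rose by 0.98 ± 0.10, 2.45 ± 0.10 and 3.34 ± 0.10 log2 units (SE) at 4, 16 and 48 h. Its call at 4 h was lost without either 4 h array and with the mean of its probe sets (adjusted p up to 0.326 over all settings). KLK3, which encodes prostate-specific antigen, had 0.01, 0.01 and 0.07 and was not called. Epithelial and luminal markers of the line (ERBB2, FOXA1, KRT8, KRT18, KRT19, EPCAM, CDH1, PIP) read 9.13 to 14.21 on all arrays. Of these 8 genes limma called 2 higher and 2 lower at 16 h and 2 higher and 3 lower at 48 h. Both are larger shares than among all genes, of which 0.177%, 6.85% and 9.51% were called at 4, 16 and 48 h. ESR1 and PGR, the estrogen and progesterone receptors, read 8.23 to 8.62 and 7.31 to 7.60, which without detection calls does not show presence or absence. There were 31 markers of liver, kidney, prostate, immune, fibroblast, endothelial, keratinocyte and basal cells and of the estrogen and progesterone receptors. Of these 31, limma called 0 at 4 and 16 h and 2 at 48 h, the keratins KRT5 (0.51) and KRT10 (-0.57). Their part in the results was not tested. The arrays give no detection calls.

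CYP4F8 was the 1 member past the threshold, higher in the DHT groups at 16 and 48 h. Its log2 signal was 6.21 and 6.33 on the vehicle arrays, 5.84 and 6.03 after 4 h, 9.92 and 10.12 after 16 h and 11.44 and 11.51 after 48 h. The 16 h arrays stood clear above all vehicle and 4 h arrays, and the 48 h arrays clear above those at 16 h. The rise over vehicle was 13.4-fold at 16 h (log2 change 3.75 ± 0.11, SE, n = 2, adjusted p = 8.12e-09) and 36.9-fold at 48 h (5.21 ± 0.11, adjusted p = 2.09e-10), with 95% intervals of 11.4 to 15.8 and 31.4 to 43.5. The order of its levels was 4 h, vehicle, 16 h and 48 h. The step between 4 and 16 h was 17.0-fold (4.09 ± 0.11, adjusted p = 6.18e-09) and that between 16 and 48 h 2.75-fold (1.46 ± 0.11, adjusted p = 0.000105). The lowest neighbours in that order, 4 h and vehicle, did not differ beyond the threshold. Both 4 h arrays lay below both vehicle arrays, at a log2 change of -0.34 ± 0.11 (95% interval -0.58 to -0.11, limma, adjusted p = 0.437). Without DHT 16 h replicate 2 the change at 16 h was 3.65 (adjusted p = 1.29e-07).

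Ranked by log2 change over all 19775 genes, CYP4F8 was number 2 at 16 h and at 48 h, in both cases after AQP3, a water and glycerol channel (51.6-fold and 88.9-fold). It was number 1 in the step from 4 to 16 h and number 5 in the step from 16 to 48 h. At 4 h it was number 348 from the lowest end. Its vehicle signal was near the lower quartile of all probe sets on those arrays (6.23), where background makes up more of a signal, so the folds may be understated. CYP4F8 has 1 probe set of its own, and no second one to set beside it.

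**Figure D1:**
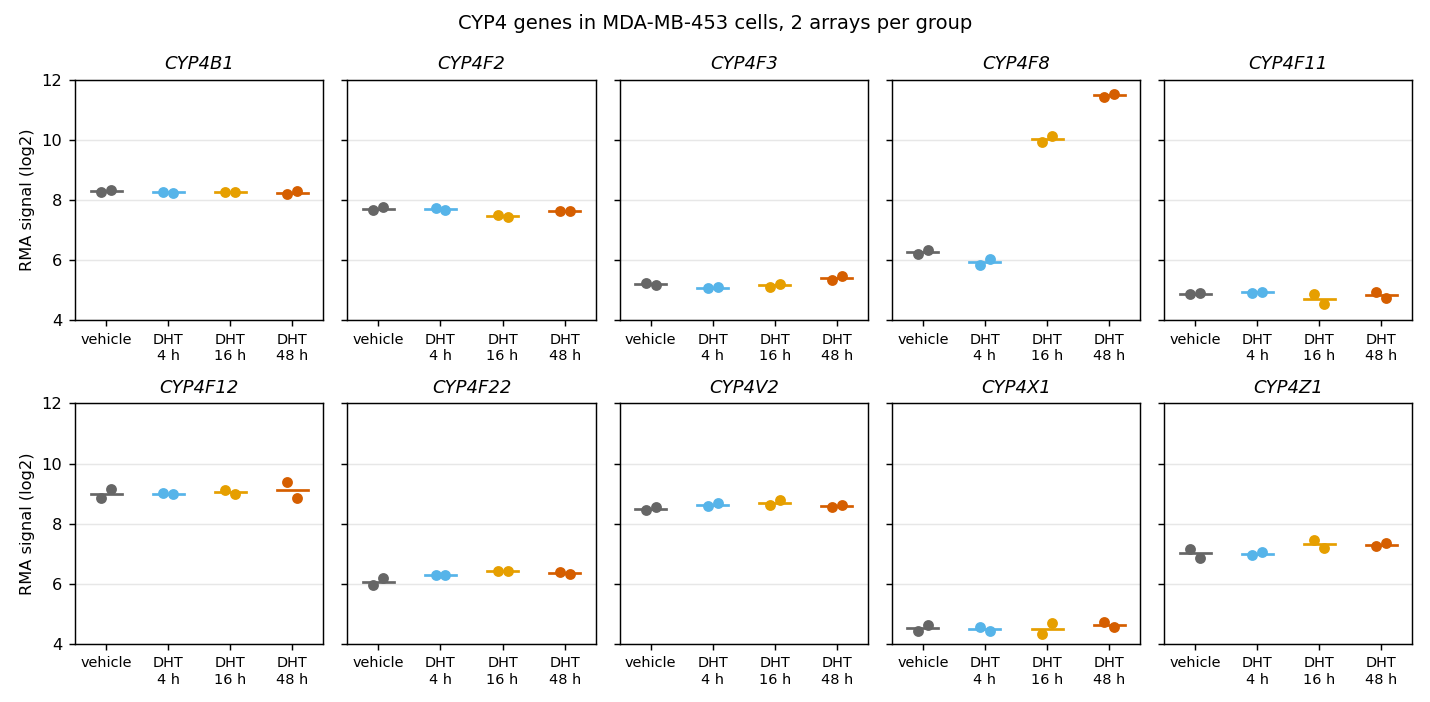
RMA signal (log2) of the 10 CYP4 genes on each of the 8 arrays, with 2 points per group for the replicates and a line at their mean. CYP4F8 goes from 6.21 and 6.33 in vehicle to 11.44 and 11.51 at 48 h, while the arrays of each other gene lie close together; heights of different panels are not comparable.

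At 4 h, 0 of the 10 members passed the threshold of adjusted p under 0.05 (limma, adjusted over all genes; 2 had an unadjusted p under 0.05), against 0.177% of all genes adjusted and 7.84% unadjusted. At 16 h CYP4F8 was the 1 of 10 called, against 6.85% of all genes called in either direction and 2.55% called higher. At 48 h it was again the 1 of 10 called, against 9.51% in either direction and 3.13% higher. The median log2 change of the members was -0.01, 0.01 and 0.12 at 4, 16 and 48 h, beside 0.00, 0.02 and 0.01 over all genes. Between 4 and 16 h and between 16 and 48 h the called member was CYP4F8 as well (1 of 10 each, against 3.05% and 0.829% of all genes in either direction and 1.28% and 0.349% higher). A moderated F test of any difference from vehicle called 1 of 10, against 8.90%. Replicate values did not overlap between DHT and vehicle for 5, 5 and 6 members, near the 40.2%, 47.0% and 51.8% of all genes.

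**Figure D2:**
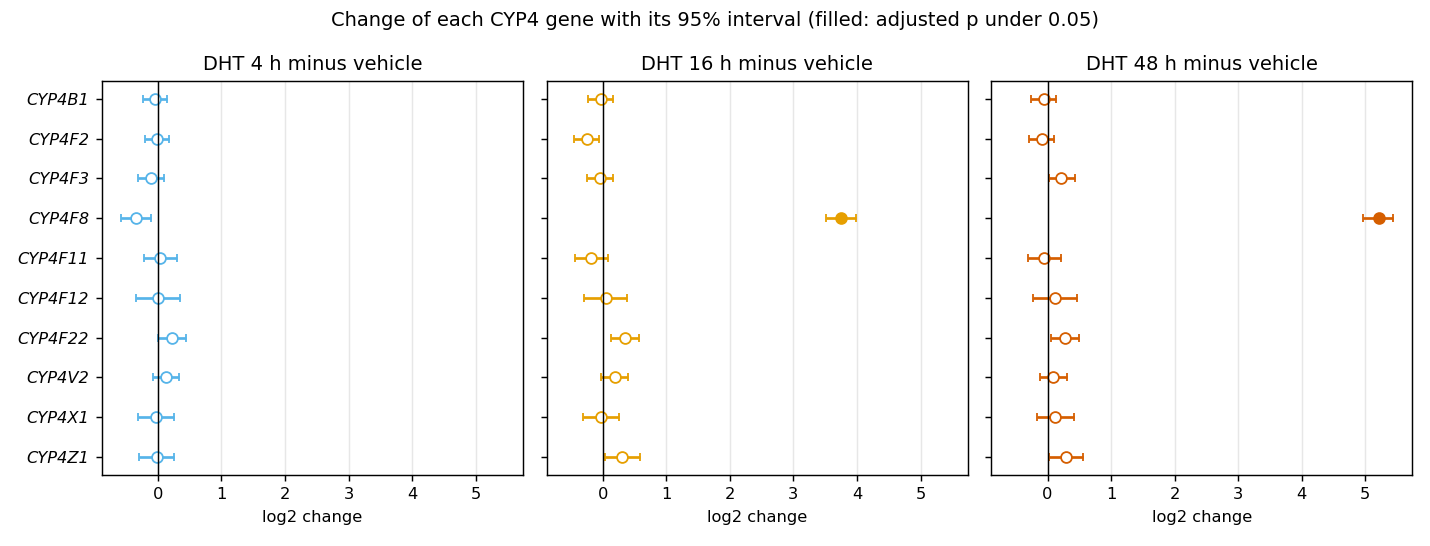
Log2 change from vehicle of each CYP4 gene at 4, 16 and 48 h, with 95% intervals from limma; filled points passed adjusted p under 0.05. The intervals of the 9 other genes lie between -0.45 and 0.58, and the filled points are those of CYP4F8 at 16 h (3.75) and 48 h (5.21).

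Among the CYP4F enzymes that act on leukotrienes and vitamins, CYP4F2, which hydroxylates arachidonic acid, leukotriene B4 and vitamins E and K, read 7.67 and 7.76 in vehicle, 7.73 and 7.67 at 4 h, 7.49 and 7.44 at 16 h, and 7.62 and 7.62 at 48 h. The 16 h arrays were the lowest and did not overlap vehicle, at a log2 change of -0.25 ± 0.09 (adjusted p = 0.134). Its probe set is of the _x_at kind, which can match other transcripts, and a probe set shared by CYP4F2 and CYP4F3 had 0.03 at 16 h. CYP4F3, the leukotriene B4 hydroxylase of neutrophils and liver, read 5.24 and 5.15 in vehicle, 5.07 and 5.09 at 4 h, 5.11 and 5.19 at 16 h, and 5.34 and 5.48 at 48 h. The 48 h arrays were its highest, at 0.22 ± 0.09 above vehicle (adjusted p = 0.190). CYP4F11, which takes long-chain fatty acids and vitamin K, read 4.85 and 4.89 in vehicle and 4.91 and 4.92 at 4 h. At 16 h it read 4.86 and 4.52, and at 48 h 4.93 and 4.73. Its lowest value belonged to DHT 16 h replicate 2, and the 16 h and 48 h arrays overlapped vehicle. CYP4F12, found in gut and liver, read 8.85 and 9.15 in vehicle, 9.03 and 8.97 at 4 h, 9.12 and 8.97 at 16 h, and 9.39 and 8.86 at 48 h. The values of all 3 DHT groups overlapped those of vehicle.

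CYP4F22 makes the omega-hydroxy acids of skin ceramides, and its loss causes ichthyosis. Its signal was 5.95 and 6.18 in vehicle, 6.30 and 6.28 at 4 h, 6.41 and 6.42 at 16 h, and 6.38 and 6.32 at 48 h. All 6 DHT arrays read above both vehicle arrays. The log2 changes were 0.22 ± 0.10, 0.35 ± 0.10 and 0.28 ± 0.10, at adjusted p = 0.626, 0.0588 and 0.114. It passed the threshold at 16 h in 3 of 17 other settings, with all arrays shifted to equal housekeeping signal (0.41, adjusted p = 0.0344), with the mean of all probe sets of each gene (0.35, 0.0449) and without vehicle replicate 2 (0.47, 0.0427). Without vehicle replicate 1 its changes were 0.11, 0.24 and 0.17 at 4, 16 and 48 h, and the adjusted p at 16 h was 0.402, the highest of the 17.

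CYP4Z1, the mammary member, read 7.16 and 6.87 in vehicle, 6.96 and 7.04 at 4 h, 7.46 and 7.18 at 16 h, and 7.24 and 7.37 at 48 h. The 16 h and 48 h arrays lay above vehicle, by 0.30 ± 0.12 (adjusted p = 0.194) and 0.29 ± 0.12 (adjusted p = 0.200), with intervals of 0.03 to 0.58 and 0.02 to 0.56 before adjustment. The change at 16 h depended on single arrays. Leaving out vehicle replicate 2 gave 0.16 (adjusted p = 0.566) and leaving out DHT 16 h replicate 1 gave 0.17 (0.557). With vehicle replicate 1 left out it was 0.45 (0.156), and with DHT 16 h replicate 2 left out 0.44 (0.104). At 48 h it was 0.15 (adjusted p = 0.594) without vehicle replicate 2. Its pseudogene CYP4Z2P, a close copy whose transcripts may share probes, had -0.20 and 0.18 with no call. CYP4X1, an anandamide-oxidising enzyme of the same cluster, read 4.43 and 4.62 in vehicle and 4.55 and 4.43 at 4 h. At 16 h CYP4X1 read 4.31 and 4.69, and at 48 h 4.73 and 4.56. The values of each DHT group overlapped those of vehicle.

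CYP4B1, a lung enzyme that takes medium-chain fatty acids and some plant toxins, read 8.18 to 8.34 over the 8 arrays, and its changes were -0.04, -0.03 and -0.06. CYP4V2, the medium-chain hydroxylase mutated in Bietti crystalline dystrophy of the retina, read 8.46 and 8.54 in vehicle, 8.58 and 8.68 at 4 h, 8.62 and 8.77 at 16 h, and 8.55 and 8.62 at 48 h. All its DHT arrays were above vehicle, and the largest change was 0.19 ± 0.10 at 16 h (adjusted p = 0.294). The 4 other probe sets, 1 of CYP4B1 and 3 of CYP4V2, had 0 calls in limma adjusted over all probe sets. For CYP4V2 their log2 changes at 16 h were 0.15, 0.07 and -0.12. Another 9 probe sets, of CYP4A11, CYP4A22, CYP4Z2P and 2 CYP4F pseudogenes or of several CYP4 genes at once, had 0 calls too. Against vehicle, the fit over all probe sets called fewer of the genes read than the main fit at 4, 16 and 48 h. The share called among all probe sets is not given, and groups of 4 and 9 are small. These 0 calls therefore do not set the probe sets apart from others.

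For the 9 members other than CYP4F8, the 95% intervals of the changes from vehicle lay between -0.45 and 0.58, or 0.734-fold and 1.49-fold. These intervals are per gene, before adjustment, and a p that misses the threshold does not show that a gene was unaltered. Low signals, as for CYP4X1, CYP4F11 and CYP4F3, can hide changes in scarce transcripts.

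CYP4F8 lies between CYP4F22 and CYP4F3 in the RefSeq gene order (GRCh38.p14). The 19 other measured genes of this stretch, from 5 genes before CYP4F22 to 5 after CYP4F11, were listed after the values had been seen. At 4 h 0 of the 19 were called, at 16 h 3 and at 48 h 2, against 0.177%, 6.85% and 9.51% of all genes. Their log2 changes ran from -1.57 to 0.82 at 16 h and from -1.46 to 0.64 at 48 h. The next measured gene beyond CYP4F22, the peptidoglycan-binding protein PGLYRP2, rose by 0.82 ± 0.14 at 16 h (adjusted p = 0.00456) and 0.64 ± 0.14 at 48 h (0.0133). Its call at 48 h was lost without vehicle replicate 1 or either 48 h array, and with all probe sets in the fit. Over all settings that change was 0.42 to 0.86. At the far end, beyond CYP4F11, TPM4, an actin-binding tropomyosin, fell by 1.57 and 1.46 (0.87 at 48 h with the mean of its probe sets). At the opposite end, beyond PGLYRP2, AKAP8L had 0.53 at 16 h (adjusted p = 0.0198). The call of AKAP8L was lost without either vehicle array or DHT 16 h replicate 2, and with all probe sets in the fit. Its change was 0.26 (adjusted p = 0.155) with the mean of its probe sets and 0.29 (0.346) with a probe set outside the _s_at and _x_at kinds. In the chromosome 1 cluster with 5 genes on each side, 15 genes in all, 0 were called at 4 and 16 h. At 48 h 1 of the 15 was called, against 9.51% of all genes. It was STIL, a centriole gene outside the CYP4 genes (-0.78, adjusted p = 0.00987). That call was lost without vehicle replicate 1 or DHT 48 h replicate 1 (up to 0.127).

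**Figure D3:**
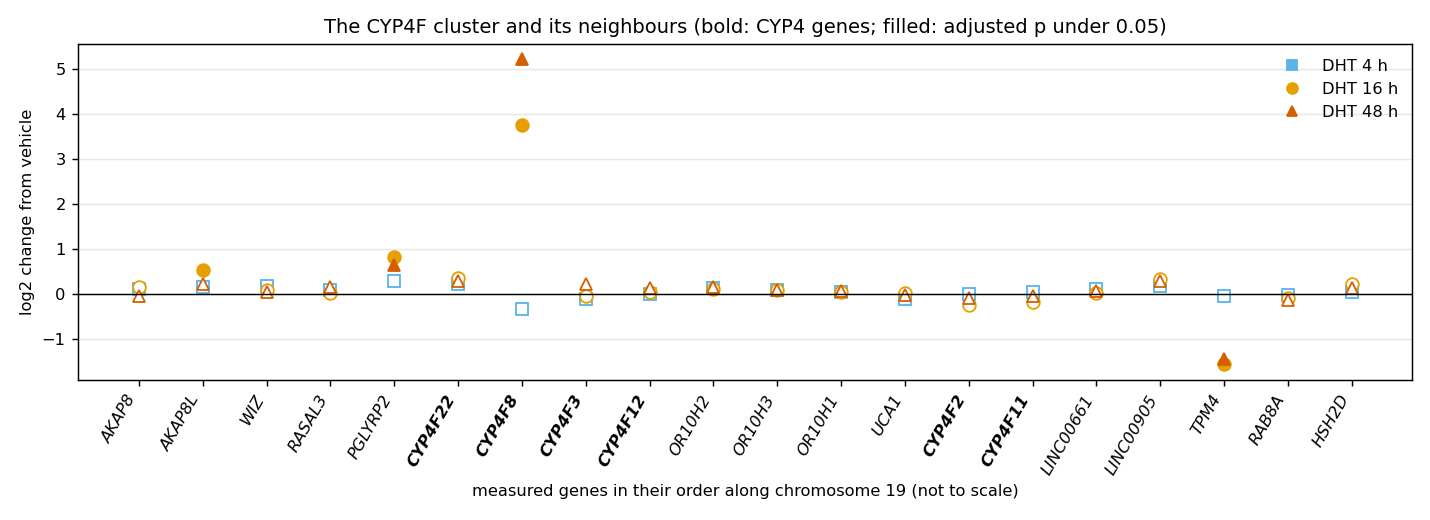
Log2 change from vehicle at 4 h (squares), 16 h (circles) and 48 h (triangles) for 20 measured genes in their order along chromosome 19, not to scale; CYP4 genes are in bold and filled symbols passed adjusted p under 0.05. CYP4F8 stands at 3.75 and 5.21, and its 19 neighbours lie between -1.57 and 0.82.

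Over the 8 arrays, the 4 genes with the course most like that of CYP4F8 were AACS (Pearson r = 0.996), P4HA1 (0.994), IQGAP2 (0.993) and CYB5A (0.993), out of 629 genes whose signal ranged over at least 1 log2 unit, 48 of them with r above 0.95. These correlations describe 4 groups of 2 arrays and rest mainly on the difference between early and late groups. AACS activates ketone bodies for lipid synthesis, and its log2 change was -0.08, 1.14 ± 0.10 and 1.43 ± 0.10 at 4, 16 and 48 h. IQGAP2, a scaffold of the cytoskeleton, had 0.01, 2.15 ± 0.12 and 2.69 ± 0.12, and its dimmer probe set had 0.07 and 0.31 at the later times with no call. P4HA1, a collagen prolyl hydroxylase subunit, had -0.11, 1.25 ± 0.09 and 1.56 ± 0.09. Its call rests on a probe set of the _s_at kind, which can match several transcripts, and its dim second probe set had 0.11 and 0.10.

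CYB5A encodes cytochrome b5, an electron donor to P450 enzymes. It read 11.92 and 12.05 in vehicle, 12.01 and 11.93 at 4 h, 12.74 and 12.66 at 16 h, and 13.07 and 13.06 at 48 h. Every 16 h and 48 h array lay above every earlier one, with changes of 0.72 ± 0.09 (adjusted p = 0.000811) and 1.08 ± 0.09 (adjusted p = 2.15e-05). Other bright probe sets gave 0.75 and 0.57 at 16 h and 1.05 and 1.03 at 48 h, all called, and a dim one outside the _s_at and _x_at kinds gave 0.16 and 0.36 with no call. The reductase POR, the other electron donor, had 0.09 and -0.20, and CYB5B, the mitochondrial form of b5, had -0.52 and -0.26, none of them called.

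**Figure D4:**
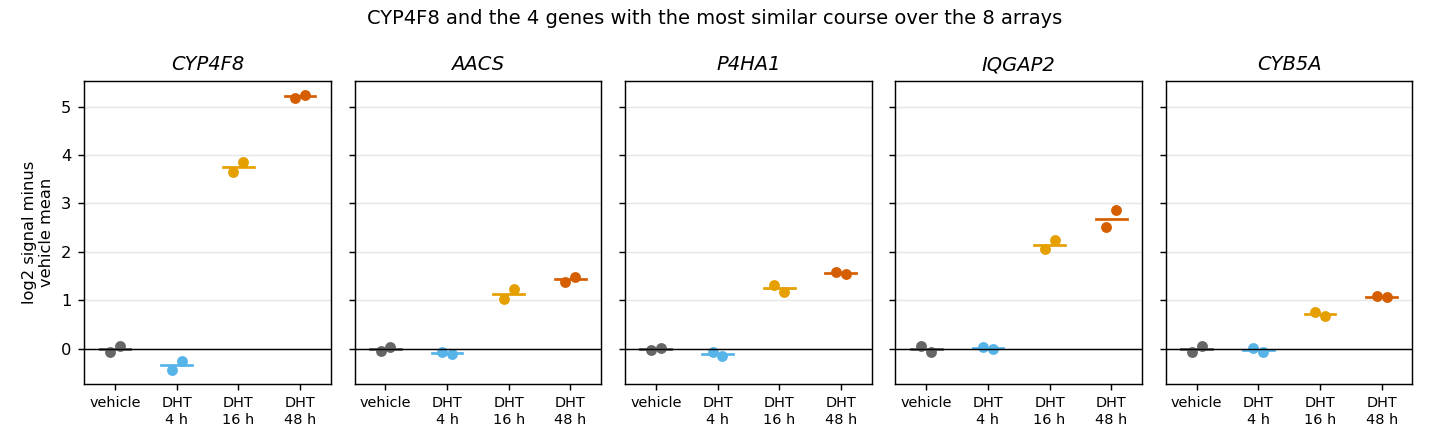
Log2 signal minus the vehicle mean on each array for CYP4F8 and the 4 genes with the highest Pearson r to it; points are the 2 replicates of a group and lines their means. At 4 h CYP4F8 sits at -0.34 and the 4 other genes at -0.11 to 0.01. All 5 genes are higher at 16 and 48 h, from 1.08 for CYB5A to 5.21 for CYP4F8 at 48 h.

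Of 73 further genes of fatty acid hydroxylation and its products, 62 were measured. At 4 h 0 of 62 were called by limma, at 16 h 3 rose and 2 fell, and at 48 h 3 rose and 3 fell. These are 8.06% and 9.68% of the list at 16 and 48 h, near the 6.85% and 9.51% of all genes, and the medians were 0.00, 0.00 and 0.01 beside 0.00, 0.02 and 0.01 over all genes. CYP1A1, which oxidises aromatic hydrocarbons and also polyunsaturated fatty acids, fell, with log2 changes of -2.59 and -2.92 at 16 and 48 h (SE 0.09), from 10.03 and 10.10 in vehicle to 7.51 and 7.44, then 7.08 and 7.21. CYP1B1, a related enzyme that also hydroxylates estrogens, had -1.95 and -2.10 (SE 0.10), and its 3 other probe sets, all called, had -2.32 to -1.71 and -2.39 to -1.37. Of the 6 measured P450 genes outside the CYP4 family that handle such lipids, these 2 were called and 4 were not.

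Among 22 genes of arachidonic acid release and prostaglandin and leukotriene synthesis or breakdown, 1 rose and 21 were not called at 16 and at 48 h. Over all genes 0.177%, 6.85% and 9.51% were called at 4, 16 and 48 h. Groups of 5 to 22 genes are too small to be set apart from these shares. That gene was GGT1, a glutathione-cleaving transferase also acting on leukotriene C4 (0.42, adjusted p = 0.0244, and 0.48, adjusted p = 0.00970). GGT1 lost its call at 16 h without either vehicle array or DHT 16 h replicate 2. That call was also lost with all probe sets in the fit and with only the arrays of the groups compared. At 48 h the call of GGT1 was lost without vehicle replicate 1 or either 48 h array. Over all settings its change was 0.31 to 0.53 at 16 h and 0.45 to 0.51 at 48 h. In peroxisomal oxidation, 1 of 9 rose, ACAA1, the thiolase of the last step, by 0.66 ± 0.10 at 16 h and 0.79 ± 0.10 at 48 h. Its second probe set rose by 1.03 and 1.32. These probe sets are of the _x_at and _s_at kinds, which can match other transcripts, and ACAA1 had none of another kind. The 8 dehydrogenases that turn omega-hydroxy acids into dicarboxylic acids and the 6 genes of skin acyl ceramides had 0 calls at 4, 16 and 48 h. Of 5 ligand-activated regulators, PPARD, a nuclear receptor for fatty acids, fell by 0.62 at 48 h (adjusted p = 0.0104), a call lost without vehicle replicate 1 or DHT 48 h replicate 1 (up to 0.132). Its 3 other probe sets had -0.77 and -0.63, both called, and 0.00. GGT1, PPARD, POR, CYB5B, PGLYRP2, TPM4, AKAP8L, STIL, KRT5 and KRT10 fall outside the rule for naming genes and were named after their values were seen.

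**Figure D5:**
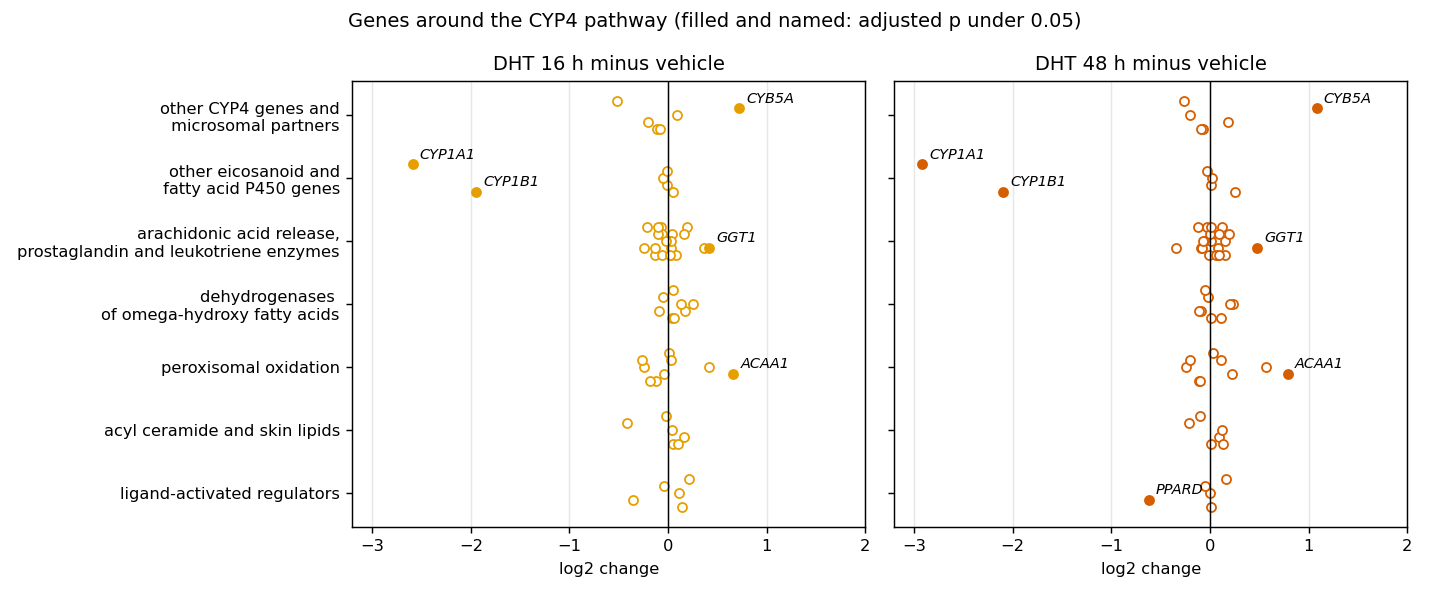
Log2 change from vehicle at 16 and 48 h for 62 measured genes around the CYP4 pathway in groups by role; each circle is a gene, and filled, named circles passed adjusted p under 0.05. CYB5A, ACAA1 and GGT1 lie to the right at both times, CYP1A1 and CYP1B1 to the left, and PPARD to the left at 48 h.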

How the data were processed

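Total RNA of MDA-MB-453 cells was hybridised to Affymetrix arrays, 2 per group in 4 groups taken from the sample titles. The authors deposited log2 signals made with RMA, per the submitters' processing notes; no RMA version is named there. Of 54675 probe sets, 62 controls were set aside; 41091 had 1 gene symbol, 1801 several and 11721 none. Each of 19775 genes was read by its brightest single-symbol probe set. Group means were modelled with limma 3.58.1 (R 4.3.3) on all 8 arrays (4 residual and 7.21 prior degrees of freedom), with Benjamini-Hochberg adjustment over all genes, two-sided tests and a threshold of 0.05; no dim genes were removed. An exact permutation test of 2 against 2 arrays cannot reach that threshold and was not run. The code was tested on simulated data. Replicate numbers were not used: deviations of same-numbered arrays correlated at -0.244 to 0.196 between groups. Array number and background limit precision.

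Named were all 10 members, up to 4 called pathway genes with the largest change per comparison with vehicle, the 4 genes most correlated with CYP4F8, the top risers needed to rank a member, FKBP5 and KLK3. Members and lists were chosen with earlier results of these data known. Promoter windows were aligned with Biopython 1.88 (match 1, mismatch -1, gap opening -2, extension -0.5).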

Additional observations from a re-analysis of the deposited data

Results flagged for a closer look

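Some results were picked out because the groups at different DHT times differed from each other by a direct test (limma, adjusted over all genes, n = 2 per group). With no vehicle arrays matched in time, these are differences between groups, not separated from time in culture. AACS, P4HA1, IQGAP2 and CYB5A were chosen for a course like that of CYP4F8 on these same arrays, which fixes their direction between 4 and 16 h, so their values are a description and not a test. Between 4 and 16 h CYP4F8 rose by 4.09 ± 0.11 log2 units (adjusted p = 6.18e-09), higher in both 16 h arrays than in both 4 h arrays, and between 16 and 48 h by a further 1.46 ± 0.11 (adjusted p = 0.000105). Between 4 and 16 h IQGAP2 rose by 2.14 ± 0.12, P4HA1 by 1.36 ± 0.09, AACS by 1.22 ± 0.10, and CYB5A by 0.74 ± 0.09. ACAA1, CYP1A1 and CYP1B1 were named from the pathway list for large called changes from vehicle on the same 16 h and 48 h arrays. Their values here are likewise a description and not a test. Between 4 and 16 h ACAA1 rose by 0.48 ± 0.10 (adjusted p = 0.0264). Over the same interval the change was -2.18 ± 0.09 for CYP1A1 and -1.85 ± 0.10 for CYP1B1. Without DHT 16 h replicate 2 or either 4 h array the difference for ACAA1 was not called. It was also not called with all probe sets in the fit or with only the arrays of the groups compared. Over all settings it was 0.40 to 0.67.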

How the results depend on the processing

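The count of CYP4 genes called was compared under 18 alternative settings. It was 1 at 16 h against vehicle and became 2, CYP4F8 and CYP4F22, with equal housekeeping signal and with the mean of all probe sets of a gene; without 1 array at a time it was 1 to 2, the 2 arising without vehicle replicate 2. The other 104 of 107 counts equalled the reported ones. CYP4F8 kept its calls in all 18, at 3.65 to 3.85 at 16 h, 5.14 to 5.27 at 48 h, 3.99 to 4.19 between 4 and 16 h and 1.36 to 1.55 between 16 and 48 h; at 4 h it was not called in any of the 18 (-0.43 to -0.25). With the replicate number as a block, the pairing which the labels do not state, the count was 0 at 4 h and 1 at 16 and 48 h, and CYP4F8 had 3.75 (adjusted p = 9.83e-09) and 5.21 (3.27e-10). Leaving out the dimmest genes removed CYP4F3, CYP4F11, CYP4F22 and CYP4X1, which then have no value. That filter took the mean over all 8 arrays, 8.43 for CYP4F8 and 6.28 for the removed CYP4F22. The vehicle and 4 h means of CYP4F8 were 6.27 and 5.93, so its 16 h and 48 h arrays kept it in. Its calls under that setting add no support. CYP4F8 has 1 probe set, so averaging probe sets or avoiding the _s_at and _x_at kinds could not alter its change. Leaving out an array of a group not compared could not alter it either. In such settings the SE and p alone could move, so the 18 are not 18 separate checks of CYP4F8. Over members and other named genes, 0 of 2230 single-gene values reversed a call, 46 lost one, 16 gained one and 61 without a call changed sign. With probe sets outside the _s_at and _x_at kinds, CYB5A (0.16 and 0.36 at 16 and 48 h) and P4HA1 (0.11 and 0.10) were not called.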
